A study of Mus musculus with 10 samples.

Results

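T cell receptor and CD3 transcripts were measured in innate lymphoid cells (ILCs) of mouse skin, which are lymphocytes without a rearranged antigen receptor. The members are 10 of the 47643 genes in the deposited tables, taken by Ensembl ID: the CD3 subunit genes Cd3g, Cd3e, Cd3d and Cd247, the receptor constant genes Trbc1, Trac, Trdc and Tcrg-C1, the delta variable segment Trdv4, and Ubash3a, a regulator of receptor signalling. RNA was sequenced from 10 libraries of skin ILCs of adult B6 mice, with no treatment or altered allele named in the labels. They comprised 3 epidermal libraries, 2 of dermal ILCs sorted as CCR6+ (a chemokine receptor), 2 of dermal ILCs sorted as Sca1+ (the protein encoded by Ly6a) and 3 subcutaneous libraries. Whether replicates are separate mice, or pools of mice, is not in the labels, and p-values therefore cover only the spread among these libraries, part of which may be technical.

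A T cell receptor is an alpha-beta or gamma-delta pair of chains, each joining a variable (V) segment, cut together with J and in some chains D segments by the RAG enzymes, to a constant (C) gene. The pair reaches the cell surface only with the CD3 chains: CD3 gamma, delta and epsilon, and the zeta chain encoded by Cd247, carry the motifs that LCK phosphorylates and ZAP70 or SYK binds. Constant genes and some V segments can be transcribed unrearranged, from germline promoters, and ILCs and NK cells are known to use CD3 zeta with other receptors. In mouse epidermis the resident T cells carry a gamma-delta receptor built with Tcrg-V5 and Trdv4.

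Library totals lay between 11627222 and 18118544 expected counts. Levels are in CPM (counts relative to the TMM-normalized total of the library), or as the deposited TPM where genes are compared per length. Against the library totals before that normalization, 3 counts were worth 0.166 to 0.258 CPM. Summed markers of other cells differed between the groups. The 8 keratinocyte markers summed to 2525 to 6482 CPM in epidermal, 1204 to 1854 CPM in dermal and 29.3 to 48.3 CPM in subcutaneous libraries. The 6 fibroblast markers summed to at most 16.9 CPM in epidermal libraries and to at least 1218 CPM in the others, and the 8 macrophage and dendritic cell markers to 3676 to 6765 CPM in subcutaneous, 160 to 586 CPM in dermal and at most 3.77 CPM in epidermal libraries. Their part in the differences between groups given here was not tested. In bulk RNA, fewer cells of a type and less RNA per cell cannot be told apart.

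Sequences matter here because several constant genes are near copies, so that a read may be placed on the wrong one. The coding bases of Trbc1 and Trbc2, the paired constant genes of the beta locus, were 95.3% identical over 512 bases (GENCODE M21 transcripts, GRCm38), and their first 120 bases did not differ. Tcrg-C1 was 97.4% identical to Tcrg-C2 and 96.8% to Tcrg-C3, but 77.3% to Tcrg-C4. The lines give the first 120 coding bases 5′ to 3′, with bases that differ from Tcrg-C1 in capitals, 2 in Tcrg-C2 and 14 in Tcrg-C4.
Trbc1: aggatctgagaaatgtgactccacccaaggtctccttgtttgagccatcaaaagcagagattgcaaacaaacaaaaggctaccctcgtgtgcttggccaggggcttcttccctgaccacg
Tcrg-C1: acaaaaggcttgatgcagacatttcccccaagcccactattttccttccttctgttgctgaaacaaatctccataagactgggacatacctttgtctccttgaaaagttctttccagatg
Tcrg-C2: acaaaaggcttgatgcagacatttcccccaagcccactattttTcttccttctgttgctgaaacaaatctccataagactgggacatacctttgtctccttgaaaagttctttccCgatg
Tcrg-C4: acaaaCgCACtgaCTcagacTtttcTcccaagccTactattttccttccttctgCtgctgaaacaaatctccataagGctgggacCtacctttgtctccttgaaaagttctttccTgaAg

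The V row that mattered was Trdv4 (chromosome 14, 54074905 to 54075515, plus strand, GRCm38), whose end lies 67335 bases before the start of Trdc. Its last 60 coding bases are shown because the germline segment stops 12 bases after its last in-frame cysteine codon, in capitals, the point from which a rearranged chain would go on into D and J segments.
Trdv4: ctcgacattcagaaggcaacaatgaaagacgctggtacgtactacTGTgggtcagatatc

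Per length, Trbc1 and Cd3g had the highest median levels of the members, and Cd3d and Trdc the lowest. Over the 10 libraries the median was 380 TPM for Trbc1 and 377 TPM for Cd3g, then 211 TPM for Trdv4, 56.5 TPM for Trac, 33.2 TPM for Tcrg-C1, 30.4 TPM for Cd247 and 24.1 TPM for Ubash3a. Cd3e reached a median of 13.4 TPM, Cd3d 6.97 TPM and Trdc 6.76 TPM. The ranges of neighbours in this order overlapped, and those of Cd3g (158 to 704 TPM) and Trbc1 (245 to 555 TPM) lay above every value of Cd3e (1.81 to 79.1 TPM) and Cd3d (1.1 to 34 TPM). The place of Trdv4 rests on an effective length of only 157 to 171 bases, to which a TPM is sensitive. That of Trdc rests on a long one, 3562 to 3579 bases. In CPM, which does not divide by length, the mean of Trdc lay above that of Cd3d in each group.

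**Figure D1:**
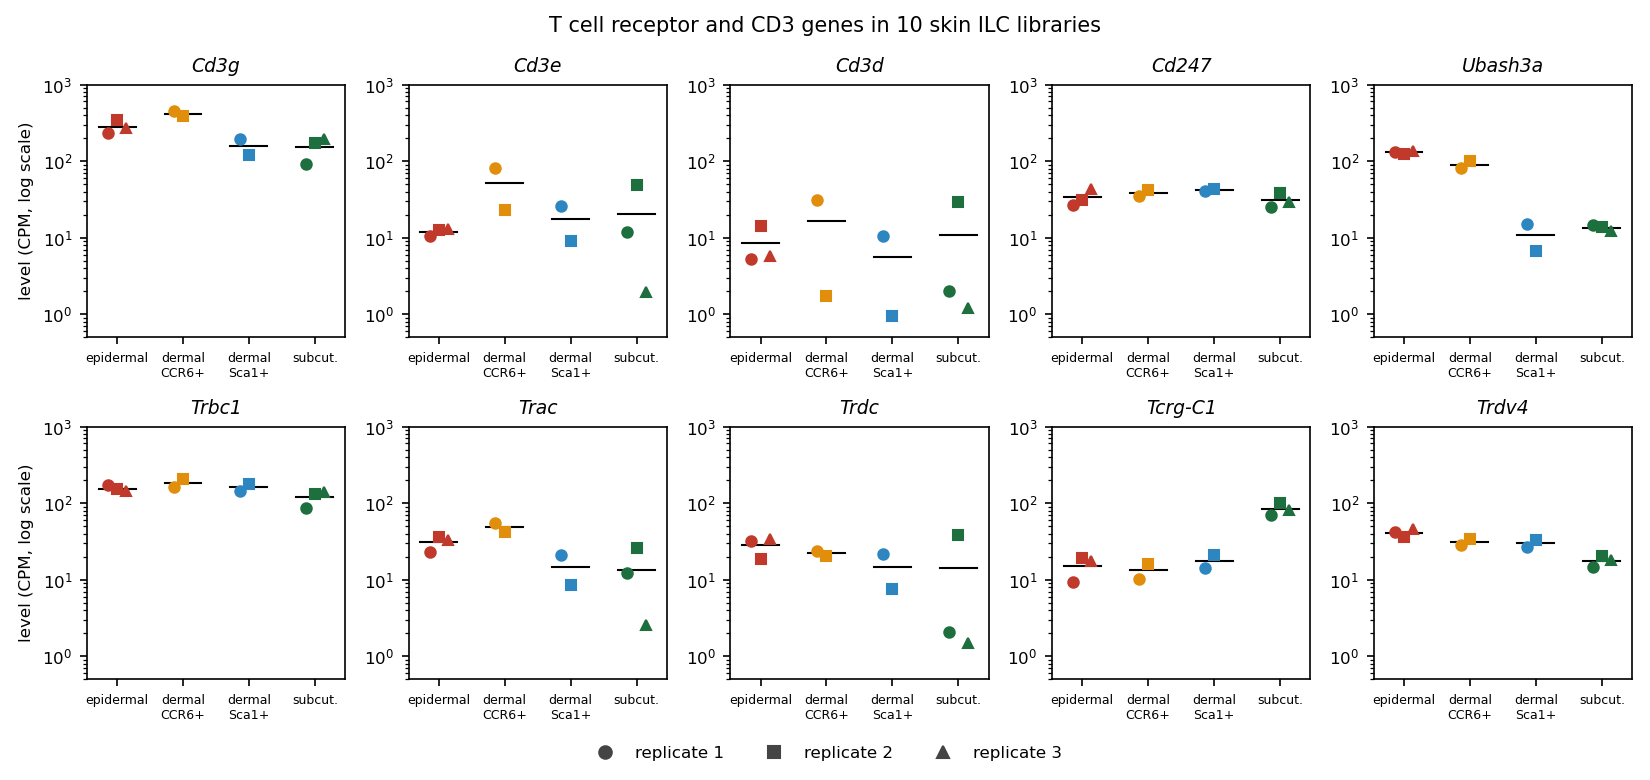
Level of each member by library (CPM, log scale), with replicates as symbols and the group mean as a line. Ubash3a and Tcrg-C1 separate groups, with subcutaneous libraries at 69.4 to 101 CPM of Tcrg-C1, while Cd3d, Cd3e and Trdc spread widely within the subcutaneous group.

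Ubash3a changed most between groups. It encodes a ubiquitin-binding protein that restrains signalling from the T cell receptor (chromosome 17, 31207873 to 31246892, plus strand). The epidermal libraries held 132, 124 and 136 CPM, the dermal CCR6+ libraries 81 and 99.3 CPM, the dermal Sca1+ libraries 14.9 and 6.62 CPM, and the subcutaneous libraries 14.7, 13.9 and 12.1 CPM. Every epidermal and CCR6+ library lay above every Sca1+ and subcutaneous one, and Sca1+ and subcutaneous levels overlapped. Ubash3a rose in epidermal against subcutaneous ILCs by 3.27 ± 0.30 (SE) on the log2 scale (edgeR quasi-likelihood test, adjusted p = 4.58e-05) and against dermal Sca1+ ILCs by 3.59 ± 0.36 (adjusted p = 0.000145). Dermal CCR6+ ILCs exceeded subcutaneous ILCs by 2.73 ± 0.31 (adjusted p = 0.00069) and dermal Sca1+ ILCs by 3.06 ± 0.36 (adjusted p = 0.00417). The last call was lost when only the dermal libraries entered the fit (3.07, adjusted p = 0.076). Epidermal and CCR6+ levels differed by 0.54 ± 0.31, which did not pass (adjusted p = 0.374).

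Cd3g, the gene of the CD3 gamma chain (chromosome 9, 44969572 to 44980431, minus strand), was the most abundant CD3 transcript in every library. Its levels were 233, 341 and 269 CPM in epidermal libraries, 448 and 387 CPM in dermal CCR6+ libraries, 196 and 119 CPM in dermal Sca1+ libraries and 92.6, 172 and 194 CPM in subcutaneous libraries. All CCR6+ libraries lay above the epidermal ones, and these above all Sca1+ and subcutaneous ones. Cd3g rose in dermal CCR6+ against subcutaneous ILCs by 1.45 ± 0.32 (SE, log2 scale; edgeR adjusted p = 0.0227). That call was lost without either CCR6+ library or without the second subcutaneous library (adjusted p = 0.0962, 0.087 and 0.0525). The epidermal difference from subcutaneous ILCs, 0.88 ± 0.30, missed the threshold (edgeR adjusted p = 0.0622) but passed it in DESeq2 (0.86, adjusted p = 0.0234). Between the dermal populations the difference was 1.41 ± 0.37, with edgeR adjusted p = 0.162 and DESeq2 adjusted p = 0.0103.

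Cd3d and Cd3e, whose products each pair with another CD3 chain, did not follow Cd3g. Cd3d stood at 5.2, 14.4 and 5.7 CPM in epidermal, 31 and 1.72 CPM in CCR6+, 10.4 and 0.945 CPM in Sca1+, and 2.01, 29.3 and 1.19 CPM in subcutaneous libraries. Cd3e stood at 10.6, 12.7 and 12.8 CPM in epidermal, 80.1 and 23.2 CPM in CCR6+, 25.9 and 8.94 CPM in Sca1+, and 11.8, 48.1 and 1.98 CPM in subcutaneous libraries. Both were high in the first library of either dermal sort and in the second subcutaneous library, and within the subcutaneous group the highest library exceeded the lowest 24.6-fold for Cd3d and 24.2-fold for Cd3e. Cd3g spread 2.09-fold there. All epidermal libraries lay below both CCR6+ libraries in Cd3e. Neither Cd3d nor Cd3e was called by edgeR in any of the 6 comparisons, where their SEs ran from 0.88 to 1.64. With no filter beyond 1 count, Cd3e passed in epidermal against CCR6+ ILCs (log2 difference -2.09, adjusted p = 0.000355), where it had been -2.10 (edgeR adjusted p = 0.262), and without the first CCR6+ library the difference was -0.94 (adjusted p = 0.78).

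Per length, Cd3g exceeded Cd3e in TPM by 5.88-fold to 157-fold (median 24.2) and Cd3d by 8.69-fold to 326-fold (median 64.8). The smallest of these ratios were in the second subcutaneous library. For Cd3e the largest was in the third subcutaneous library, and for Cd3d in the second CCR6+ library. The 3 genes are neighbours: the starts of Cd3g and Cd3d lie 1355 bases apart on opposite strands, and Cd3e is the next of the 3 on the same chromosome. Windows of 300 bases, mostly upstream of the RefSeq start (GRCm38.p6), are shown because these neighbours differ so much in level, with the Ubash3a window for the member that changed most.
Cd3g, chr9:44980382-44980681, minus strand: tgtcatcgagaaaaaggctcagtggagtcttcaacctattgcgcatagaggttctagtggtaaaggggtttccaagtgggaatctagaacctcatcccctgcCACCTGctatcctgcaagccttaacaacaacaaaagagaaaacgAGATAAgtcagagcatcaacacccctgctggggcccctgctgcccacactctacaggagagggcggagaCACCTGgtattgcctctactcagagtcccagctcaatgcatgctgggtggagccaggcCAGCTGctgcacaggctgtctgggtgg
Cd3d, chr9:44981536-44981835, plus strand: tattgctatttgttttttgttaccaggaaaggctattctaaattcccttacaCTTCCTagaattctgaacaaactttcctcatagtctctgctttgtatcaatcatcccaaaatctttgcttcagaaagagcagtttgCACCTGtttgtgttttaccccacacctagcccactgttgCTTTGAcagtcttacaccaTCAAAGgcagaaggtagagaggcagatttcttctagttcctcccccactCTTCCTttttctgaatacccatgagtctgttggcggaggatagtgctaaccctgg
Cd3e, chr9:45009562-45009861, minus strand: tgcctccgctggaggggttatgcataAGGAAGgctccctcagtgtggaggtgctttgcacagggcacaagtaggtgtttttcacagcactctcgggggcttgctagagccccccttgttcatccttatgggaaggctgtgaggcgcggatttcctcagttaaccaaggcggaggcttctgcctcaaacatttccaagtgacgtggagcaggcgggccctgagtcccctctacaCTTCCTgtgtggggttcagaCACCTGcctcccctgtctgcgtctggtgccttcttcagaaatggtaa
Ubash3a, chr17:31207816-31208115, plus strand: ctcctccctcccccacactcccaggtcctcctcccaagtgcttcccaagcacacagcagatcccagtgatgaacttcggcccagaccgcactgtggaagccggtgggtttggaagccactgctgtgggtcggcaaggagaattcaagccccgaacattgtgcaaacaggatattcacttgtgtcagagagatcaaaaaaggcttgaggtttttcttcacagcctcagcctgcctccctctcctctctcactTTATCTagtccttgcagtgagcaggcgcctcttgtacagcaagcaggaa

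Capitals mark letters searched on both strands: TGTGGT for the RUNX family, CTTTGA for the TCF and LEF family, AGATAA for the GATA family, AGGAAG for the ETS family, and the E-box letters CAGCTG as well as CAGGTG. None of these contains another. Of 32851 promoter windows of this length, 16.8% held TGTGGT, 16% CTTTGA, 11.2% AGATAA, 35.4% AGGAAG, 16.3% CAGCTG and 20.2% CAGGTG. The Cd3g window held CAGGTG at 2 places, CAGCTG and AGATAA. The Cd3d window held CTTTGA and AGGAAG at 2 places each and CAGGTG, and the Cd3e window AGGAAG at 2 places and CAGGTG. The Ubash3a window held AGATAA alone of these letters. A match is only a match of letters and was not tested for binding.

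**Figure D2:**
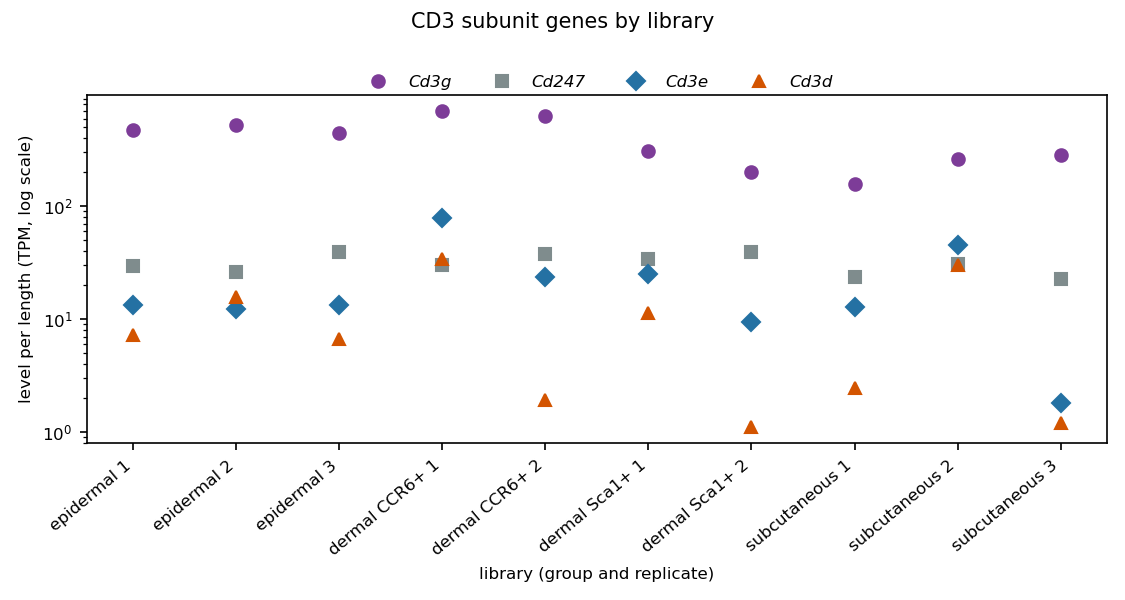
Deposited TPM (log scale) of the 4 CD3 subunit genes in each library. Cd3g lies above the other 3 in all 10 libraries, Cd247 stays between 22.7 and 39.7 TPM, and Cd3e and Cd3d move from library to library within groups.

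Cd247, the gene of CD3 zeta (chromosome 1, 165788681 to 165877277, plus strand), varied least. Its levels were 27, 31 and 43.4 CPM in epidermal, 35 and 42.1 CPM in CCR6+, 40.6 and 43 CPM in Sca1+, and 25, 38 and 29.2 CPM in subcutaneous libraries. Only the Sca1+ and subcutaneous ranges did not overlap, and no comparison passed the test (edgeR adjusted p from 0.547 to 0.976). Cd247 overlaps Pou2f1 and other genes on the opposite strand, and the library preparation does not mark strand, so reads of these genes cannot be told apart.

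Of the constant genes, Tcrg-C1 (chromosome 13, 19214103 to 19217024, plus strand) differed between layers. It encodes a gamma chain constant region. Tcrg-C1 stood at 9.43, 19.1 and 17.4 CPM in epidermal, 10.3 and 16.2 CPM in CCR6+, 14.3 and 21.1 CPM in Sca1+, and 69.4, 101 and 80.2 CPM in subcutaneous libraries. All 3 subcutaneous libraries lay above the other 7, whose groups overlapped. Against subcutaneous ILCs, Tcrg-C1 fell in all 3 other groups, with a log2 difference of -2.45 ± 0.35 (SE) in epidermal ILCs (edgeR adjusted p = 0.000763), -2.66 ± 0.41 in dermal CCR6+ ILCs (adjusted p = 0.00395) and -2.24 ± 0.41 in dermal Sca1+ ILCs (adjusted p = 0.0195). The Sca1+ call was lost without either Sca1+ library or without the second or the third subcutaneous library, where the adjusted p ran from 0.0564 to 0.161.

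The sum of the 4 gamma constant genes differed less, since Tcrg-C4 made up most of it and did not follow Tcrg-C1. Tcrg-C4 ranged from 82.2 to 150 CPM, with 124 ± 14.5 CPM (SD, n = 3) in epidermal and 123 ± 24.4 CPM (SD, n = 3) in subcutaneous libraries, and was not called in any comparison. Summed over Tcrg-C1, C2, C3 and C4, the log2 difference from subcutaneous ILCs was -0.57 ± 0.18 in epidermal (edgeR adjusted p = 0.0482), -1.02 ± 0.21 in CCR6+ (adjusted p = 0.0142) and -1.03 ± 0.21 in Sca1+ ILCs (adjusted p = 0.0311). With Tcrg-C1 summed only with its near copies Tcrg-C2 and Tcrg-C3, an alternative chosen after seeing the data, its log2 difference was -2.30 in epidermal (edgeR adjusted p = 0.000474), -2.45 in CCR6+ (adjusted p = 0.00287) and -2.20 in Sca1+ ILCs (adjusted p = 0.011).

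Trbc1, the first beta constant gene (chromosome 6, 41538218 to 41539881, plus strand), varied little between groups. It stood at 170, 151 and 143 CPM in epidermal, 163 and 207 CPM in CCR6+, 143 and 179 CPM in Sca1+, and 86.7, 133 and 141 CPM in subcutaneous libraries. The subcutaneous range lay just below the others, and no comparison passed (edgeR adjusted p from 0.158 to 0.944). Summed with its near copy Trbc2, it reached 407 ± 27.9 CPM (SD, n = 3) in epidermal, 438 ± 53.4 CPM (SD, n = 2) in CCR6+, 390 ± 27.9 CPM (SD, n = 2) in Sca1+ and 369 ± 97.7 CPM (SD, n = 3) in subcutaneous libraries, also without a call.

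Trac and Trdc, the alpha and delta constant genes of the shared locus on chromosome 14 (54220521 to 54224206 and 54142851 to 54148868, plus strand), varied most within the subcutaneous group. Trac stood at 22.9, 35.9 and 33.4 CPM in epidermal, 55.4 and 42 CPM in CCR6+, 20.7 and 8.42 CPM in Sca1+, and 12.2, 25.7 and 2.54 CPM in subcutaneous libraries. The CCR6+ libraries lay above all others and the subcutaneous range spread 10.1-fold. None of its comparisons passed in edgeR (adjusted p from 0.153 to 0.976), and with no filter on low counts Trac passed in dermal CCR6+ against Sca1+ ILCs (adjusted p = 0.034) and in epidermal and CCR6+ against subcutaneous ILCs (adjusted p = 0.0279 and 0.00105).

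Trdc stood at 31.9, 18.8 and 34.2 CPM in epidermal, 23.7 and 20.5 CPM in CCR6+, 21.9 and 7.65 CPM in Sca1+, and 2.08, 38.6 and 1.51 CPM in subcutaneous libraries. The second subcutaneous library alone exceeded every other library, and the other 2 of that group lay below all 7 remaining ones. With all libraries the epidermal difference from subcutaneous ILCs was 1.01 ± 0.998 (SE, log2 scale; edgeR adjusted p = 0.548). Without the second subcutaneous library it was 3.97 (adjusted p = 0.00252), and that of dermal CCR6+ ILCs was 3.61 (adjusted p = 0.0117). That library also held 1131 CPM of the 10 NK cell markers, against 91.9 and 57.7 CPM in the other subcutaneous libraries, and 10.2 CPM of Tcrg-C2 against at most 0.0669 CPM. The part of those cells in its Trdc was not tested. Trdc overlaps Trdv5 and the antisense gene Gm43434, and at most 3 counts were assigned to Gm43434 in any library.

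Trdv4 rose in epidermal against subcutaneous ILCs by 1.23 ± 0.26 (SE, log2 scale; edgeR adjusted p = 0.0074). Its levels were 41.8, 35.6 and 45.5 CPM in epidermal, 28 and 33.9 CPM in CCR6+, 26.7 and 33.2 CPM in Sca1+, and 14.6, 20.2 and 17.8 CPM in subcutaneous libraries. The epidermal libraries lay above all 7 others and the subcutaneous ones below all 7 others. The differences of dermal CCR6+ ILCs (0.82 ± 0.28) and Sca1+ ILCs (0.77 ± 0.28) from subcutaneous ILCs did not pass (edgeR adjusted p = 0.113 and 0.218). Tcrg-V5, the gamma segment of the epidermal T cell receptor, had 21, 22 and 32 counts in epidermal and 29, 23 and 32 counts in subcutaneous libraries, and 15 to 25 in dermal ones, while Trdv4 had 218 to 919. The log2 difference of Tcrg-V5 in epidermal against subcutaneous ILCs was -0.51 ± 0.85 (edgeR adjusted p = 0.746). Its counts were low and its SE exceeded the difference, so a rise or a fall cannot be told. The part of T cells in the Trdv4 level was not tested. The antisense gene Gm30275, which overlaps Trdv4, had 0 counts in all libraries.

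In all, 3 of 10 members were called in epidermal against subcutaneous ILCs, where 20.2% of the 16208 genes tested were called. In dermal CCR6+ against subcutaneous ILCs 3 of 10 were called, against 7.46% of all genes, and in epidermal against dermal Sca1+ ILCs 1 of 10, against 11.4%. The count was 1 of 10 between the dermal populations, against 0.642%, 1 of 10 in Sca1+ against subcutaneous ILCs, against 2.2%, and 0 of 10 in epidermal against CCR6+ ILCs, against 6.18%. In that last comparison no member had an unadjusted p under 0.05, and the DESeq2 count was also 0. All 10 members passed the filter on low counts, and their median log2 difference ran from -0.22 in epidermal against CCR6+ ILCs to 0.99 in CCR6+ against Sca1+ ILCs, where the medians of all genes were 0 and -0.01. The 3 comparisons with subcutaneous ILCs share those libraries and are not independent.

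Rearranged receptors bring V, D and J segments along with a constant gene, so the other segment rows were counted. Of 270 segment rows, 153 were at 0 in every library and 22 had at least 10 counts in at least 2 libraries. None of the 4 D rows had a count, and the highest count of any of the 70 J rows was 2. These rows are short, and reads across a junction can fail to be assigned to them. Of 144 V rows, 15 reached 10 counts in 2 libraries. At the alpha and delta locus Trdv4 was far above all other V rows, of which Trdv2-2 reached at most 42 counts and Trav11d at most 52.

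V counts were few beside constant counts at the beta and gamma loci, and not at the alpha and delta locus. At the beta locus there were 1.07 to 30.5 V counts per 1000 counts of Trbc1 and Trbc2, and at the gamma locus 12 to 54.3 per 1000 counts of the gamma constant genes. The first CCR6+ library had 30.5 (95% Poisson interval 26.3 to 35.1) at the beta locus and the second subcutaneous library 24.5 (20.5 to 29.1), while the other 8 had at most 8.2. Intervals cover counting error only. Counts were not divided by length, so ratios of different loci are not on one scale. The effective length was 157 to 171 bases for Trdv4 and 3562 to 3579 bases for Trdc. At the alpha and delta locus there were 467 to 4608 V counts per 1000 counts of the constant genes, and V counts exceeded constant counts in the second Sca1+ library (2182) and the first and the third subcutaneous library (1235 and 4608). Without Trdv4 the range at that locus was 19.1 to 216. With Trdv4 left out, the V counts of all loci were highest in the second epidermal library (172 counts), the first of either dermal sort (410 and 187) and the second subcutaneous library (365).

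**Figure D3:**
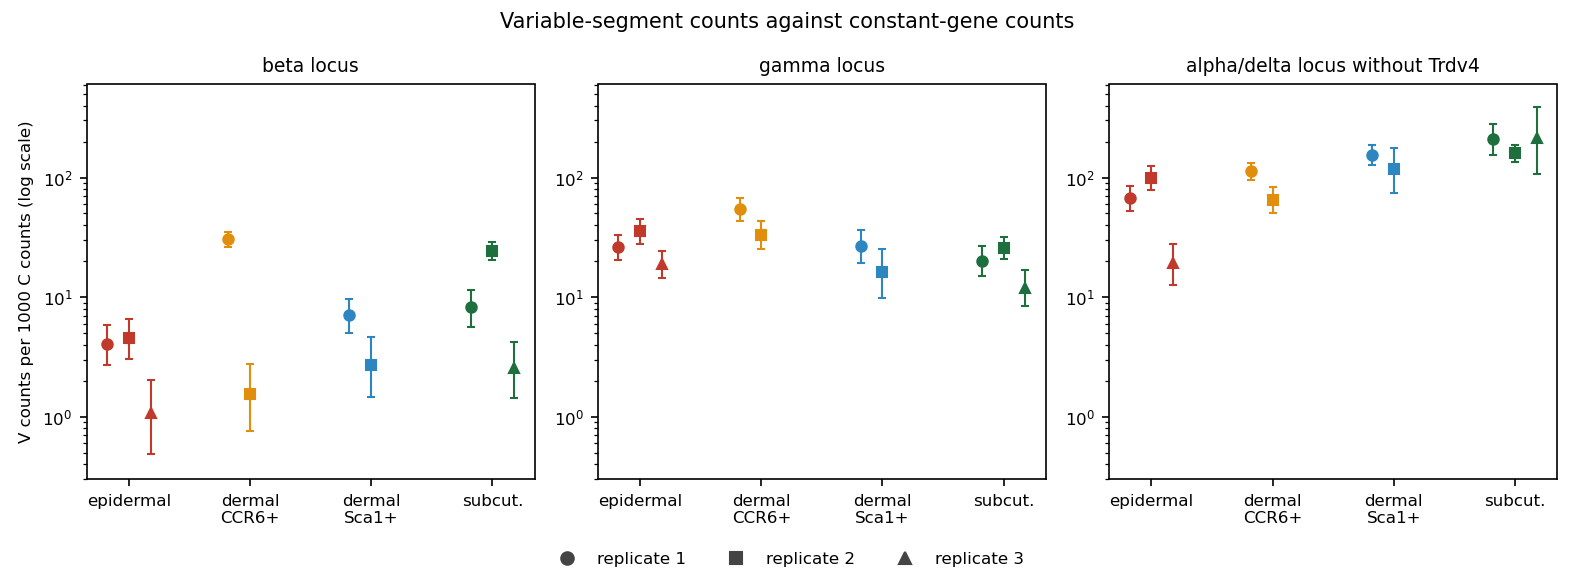
V counts per 1000 constant-gene counts at the beta, gamma and alpha/delta loci (log scale) by group and replicate, with 95% Poisson intervals. At the beta locus the first CCR6+ library (30.5) and the second subcutaneous library (24.5) stand above the rest. Gamma values lie between 12 and 54.3, and alpha/delta values, drawn without Trdv4, between 19.1 and 216.

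Other T cell transcripts were compared with Cd3e library by library. The library highest in Cd3e within its group was also highest in Trdc and in Cd4, a helper T cell co-receptor, in 4 of 4 groups, in Cd3d, Trac, Cd2 and Cd40lg in 3 of 4, in Cd3g, Cd247, Trdv4, Ubash3a and Cd6 in 2 of 4, in Tcrg-C1 in 1 of 4 and in Trbc1 in 0 of 4. Groups of 2 or 3 libraries often match in this way by chance, and in the epidermal group the 2 highest Cd3e libraries were close (12.8 and 12.7 CPM). Cd4, Cd2, Cd6 and Cd40lg were named here after their values were seen. Among further T cell markers, Cd5, Foxp3 and Cd8a were highest in the first library of the subcutaneous group. Cd28, Themis and Cd8b1 were highest in the second, where Cd3e was also highest. In both dermal sorts Cd5, Foxp3 and Cd28 were highest in the first library, as Cd3e was. Cd8a and Cd8b1 were also higher in the first CCR6+ library, and at 0 in both Sca1+ libraries. In the epidermal group Cd5, Foxp3 and Cd28 were highest in the first library, and Cd3e in the third. Cd4 stood at 7 and 0.132 CPM in CCR6+, 10.2 and 0 CPM in Sca1+, 7.23, 35.5 and 0 CPM in subcutaneous, and 0, 0 and 1.49 CPM in epidermal libraries. It was thus at 0 in 4 of the 10 libraries. Cd8a was at 0 in 7 of 10 libraries and nowhere above 4.89 CPM, and Cd8b1, its partner, nowhere above 9.25 CPM. The part of T cells in the levels of any of the 10 members was not tested.

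The 12 alpha-beta T cell markers summed to 77.7 to 121 CPM in epidermal, 377 to 615 CPM in dermal and 103 to 421 CPM in subcutaneous libraries. Of these, Cd28 and Themis passed in at least 1 comparison and the other 10 in none. Of all genes tested, 0.642% to 20.2% passed, depending on the comparison. Cd28, a costimulatory receptor, stood at 12.2, 8.64 and 11.9 CPM in epidermal, 102 and 99 CPM in CCR6+, 314 and 229 CPM in Sca1+, and 120, 128 and 75.9 CPM in subcutaneous libraries. In epidermal ILCs Cd28 fell, with a log2 difference of -3.30 ± 0.27 (SE) against subcutaneous ILCs (edgeR adjusted p = 2.41e-05), -3.20 ± 0.28 against CCR6+ ILCs (adjusted p = 0.000137) and -4.63 ± 0.29 against Sca1+ ILCs (adjusted p = 1.36e-05). It rose in Sca1+ against subcutaneous ILCs by 1.33 ± 0.27 (adjusted p = 0.0318). All 3 epidermal libraries lay below every other library in Cd28.

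The proximal signalling list held 34 genes that act next to the receptor, all of them tested. In epidermal against subcutaneous ILCs 12 of 34 passed, against 20.2% of all genes, of which 7 rose and 5 fell. In CCR6+ against subcutaneous ILCs 11 of 34 passed, against 7.46% of all genes, of which 8 rose and 3 fell. Between the dermal populations and in Sca1+ against subcutaneous ILCs 0 of 34 passed in edgeR, with 7 and 8 at an unadjusted p under 0.05, and DESeq2 called 4 in either comparison. In epidermal against CCR6+ ILCs 1 rose and 2 fell, a share near the 6.18% of all genes, and in epidermal against Sca1+ ILCs 5 rose and 3 fell, against 11.4% of all genes. The count against Sca1+ ILCs was 0 risen and 1 fallen without the first Sca1+ library, 0 and 2 without the second, 1 and 2 without the third epidermal library or with the replicate block, 2 and 1 with only those groups in the fit, 3 or 4 and 1 with limma, and 3 and 2 without the second epidermal or the third subcutaneous library. In CCR6+ against subcutaneous ILCs 0 fell without either CCR6+ library and 6 or 5 rose, and without the second or the third subcutaneous library 6 rose and 1 fell. The list's median log2 difference was 0.20 in epidermal and 0.26 in CCR6+ ILCs against subcutaneous ILCs, beside -0.02 and -0.08 for all genes.

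Lck, the kinase that phosphorylates the CD3 chains, stood at 660, 619 and 591 CPM in epidermal, 519 and 625 CPM in CCR6+, 249 and 162 CPM in Sca1+, and 69.8, 203 and 96.3 CPM in subcutaneous libraries. All epidermal and CCR6+ libraries lay above the others. Against subcutaneous ILCs Lck rose by 2.34 ± 0.36 (SE, log2 scale) in epidermal (edgeR adjusted p = 0.00122) and by 2.22 ± 0.38 in CCR6+ ILCs (adjusted p = 0.00677). Rasgrp1, an activator of Ras, rose by 2.45 ± 0.29 and 1.87 ± 0.30, and Ptpn22, a phosphatase that restrains LCK, by 1.55 ± 0.38 and 2.55 ± 0.42. Ubash3b, the phosphatase paralog of Ubash3a, rose by 1.12 ± 0.19 and 1.18 ± 0.21, and Zap70 by 0.95 ± 0.22 and 1.003 ± 0.24.

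Other genes of the list fell. Syk, the relative of Zap70 used by other receptors, stood at 3.09, 2.23 and 2.53 CPM in epidermal, 12.1 and 2.44 CPM in CCR6+, 15.5 and 2.92 CPM in Sca1+, and 31.4, 47.6 and 34.3 CPM in subcutaneous libraries. All subcutaneous libraries lay above the other 7. Syk fell by 3.85 ± 0.73 (SE, log2 scale) in epidermal against subcutaneous ILCs (edgeR adjusted p = 0.0043), and Prkcq, the protein kinase C of T cells, fell by 1.15 ± 0.25 (adjusted p = 0.00906). The subcutaneous libraries also had the most macrophage and dendritic cell markers, of cells that express Syk, and their part was not tested.

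**Figure D4:**
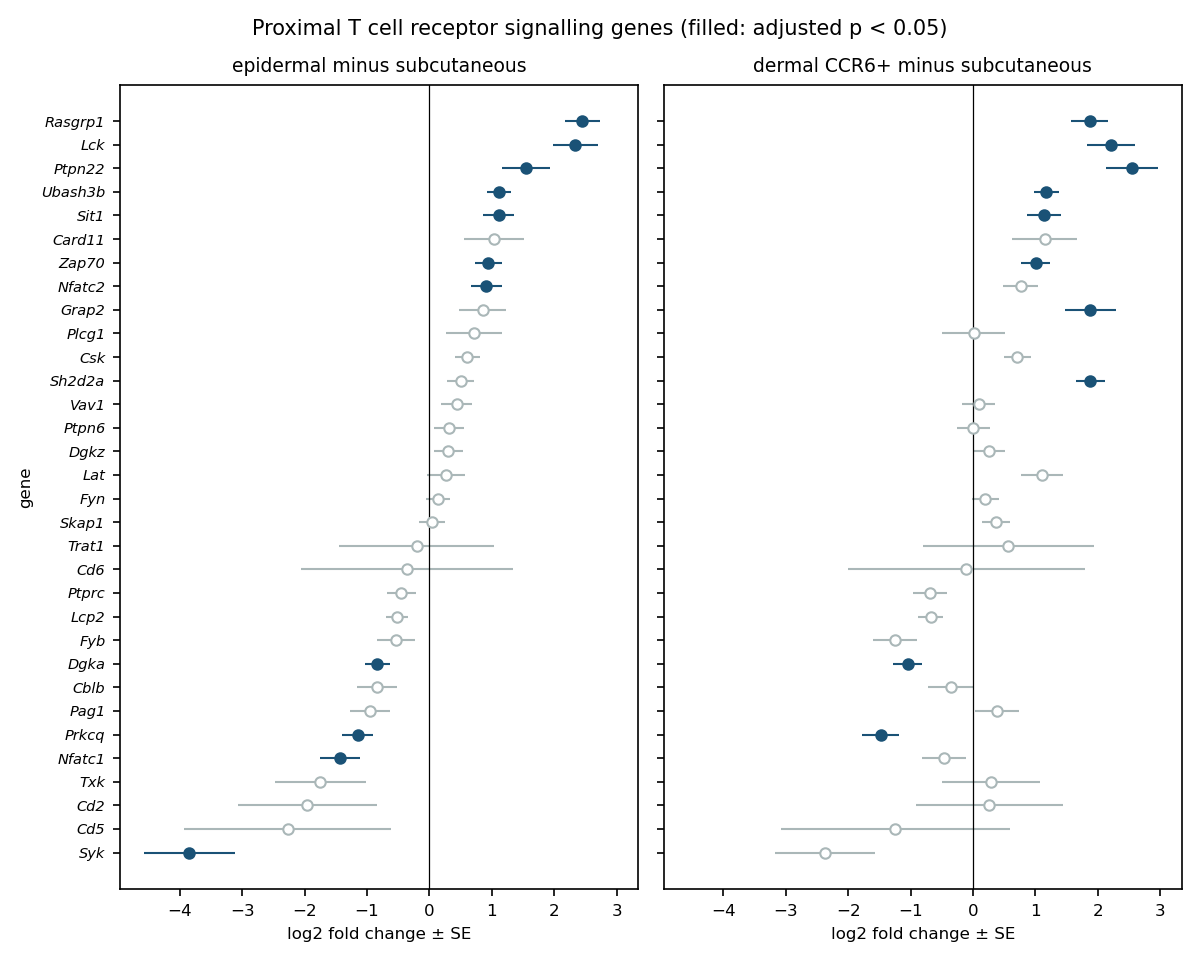
Log2 fold changes (± SE) of 32 of the 34 proximal signalling genes in epidermal (left) and dermal CCR6+ ILCs (right) against the same subcutaneous libraries, ordered by the epidermal value. Filled points passed the edgeR test, with Rasgrp1, Lck and Ptpn22 at the top and, in epidermal ILCs, Syk at the bottom. Themis, at 0 counts in both dermal groups, is not drawn.

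Themis, a regulator of receptor signalling in developing T cells, had 0 counts in all 4 dermal libraries. It stood at 1.9, 2.58 and 4.66 CPM in epidermal and 1.14, 3.69 and 1.51 CPM in subcutaneous libraries. Set against a floor of 3 counts over the lower group, its mean was at least 31.2-fold higher in epidermal than in CCR6+ ILCs and at least 27.8-fold higher than in Sca1+ ILCs, and the edgeR test passed in both (adjusted p = 0.0321 and 0.023). In subcutaneous ILCs it was at least 21.6-fold higher than in CCR6+ ILCs (edgeR adjusted p = 0.0362). Against Sca1+ ILCs it was at least 19.3-fold higher, where the test did not pass (edgeR adjusted p = 0.0794). With 0 counts in the dermal libraries, Themis passed the filter on low counts only through the epidermal and subcutaneous libraries. It was also named after its values were seen, so these tests lend no separate support to the differences. The fold bounds leave out the spread within the higher group.

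On the gamma-delta list, 14 of 15 genes were in the files by symbol and 9 were tested. 5830411N06Rik, a scavenger receptor gene known from gamma-delta T cells, stood at 249, 125 and 191 CPM in epidermal, 239 and 340 CPM in CCR6+, 38.7 and 34.1 CPM in Sca1+, and 1.74, 9.25 and 1.67 CPM in subcutaneous libraries. Epidermal and CCR6+ libraries lay above all Sca1+ libraries, and these above all subcutaneous ones. It rose by 5.47 ± 0.65 (SE, log2 scale) in epidermal against subcutaneous ILCs (edgeR adjusted p = 0.000227), by 6.09 ± 0.69 in CCR6+ (adjusted p = 0.00069) and by 3.10 ± 0.63 in Sca1+ ILCs (adjusted p = 0.0321). Cd163l1, its relative, rose by 3.96 ± 1.09 in epidermal against subcutaneous ILCs (edgeR adjusted p = 0.0275). It stood at 77.8, 8.85 and 40.8 CPM in epidermal, and 2.88, 5.22 and 0 CPM in subcutaneous libraries. The CCR6+ libraries, at 42 and 36.1 CPM, lay within the epidermal range, and the Sca1+ libraries stood at 12.5 and 20.7 CPM. The other 7 tested genes of the list, Blk, Sox13, Tcrg-V1, Tcrg-V5, Trdv2-2, Tcrg-C2 and Tcrg-C4, passed in no comparison. The share of all genes that passed was 0.642% to 20.2%, depending on the comparison.

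The genes whose log2 CPM ran closest to a member over the 10 libraries are given as a description, since libraries of a group are alike and so are not independent points. For Ubash3a they were Tmem154 (Pearson r = 0.986, Spearman rho = 0.879), Prelid2, Asic3, Gmnn and Slc34a3 (r from 0.972 to 0.98). For Cd3g they were Nxn (r = 0.946, rho = 0.939), Mis18a, Sin3b, Paox and Anapc11. For Trdc the nearest was Tcrg-C2 (r = 0.958, rho = 0.794), followed by Cd160, Cdkn3, Bcl2a1c and Rrm2. For Trac it was Mybl2 (r = 0.96, rho = 0.939), then Cenpw, Bcl2a1c, Hist1h2ab and Afap1, and for Cd3e Ssr1 (r = 0.892, rho = 0.83), the gamma V segment Trgv2, Slc25a30, Arrdc3 and Ccr7. Among the members, the closest pairs were Cd3e with Trac and Trdc with Trac, each at r = 0.82, and the farthest apart were Trdv4 and Tcrg-C1 at r = -0.81.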

How the data were processed

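Per the labels' protocols, RNA of the 10 libraries was amplified by an ultra-low-input SMART-type kit before Nextera XT, which keeps no strand information. The submitters' processing notes name Trimmomatic, STAR, RSEM and mm10. Their versions and settings, and which annotation was used, are not stated in any source used here. Per the file headers, each library has RSEM gene results: the expected counts are the deposited estimates per gene, in which ambiguous reads are split between genes. TPM values were scaled by RSEM to effective gene length and a common total before deposit, per the file headers, and the deposited FPKM values were not used. The deposited effective lengths (another number per gene) served as an offset in 1 alternative.

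Samples were grouped by the layer and sort marker in their titles. The cell type label of the second library of either dermal sort names no marker. Of 47643 IDs, 47224 had a symbol in GENCODE M21 (GRCm38). Expected counts were rounded. Genes were kept by filterByExpr by group (count minimum 10), which left 16208. One edgeR 4.0.16 quasi-likelihood model (TMM, 4 groups, all 10 libraries, R 4.3.3) gave 6 two-sided comparisons, and a gene was called at an adjusted p under 0.05 (Benjamini-Hochberg, all genes tested). The SE is the absolute log2 fold change over the square root of F. The script was tested on simulated data. The members, the gene lists and the tests were chosen with earlier results of these data known. Other segment rows were named with at least 10 counts in at least 2 libraries, at most 12 by mean count. Listed genes were to be named where called, at most 6 a list and comparison, but not all such genes are named. Genes most like a member were the 5 with the highest Pearson r. Themis, Cd4, Cd8a, Cd8b1, Cd2, Cd6, Cd40lg and the genes of the closing observations were named after their values were seen. Alternatives were RLE size factors, DESeq2 1.42.0, limma-trend 3.58.1 on log2(TPM + 1) and log2(TPM + 0.1), no filter beyond 1 count, 5 CPM in 2 libraries, only the groups compared, robust dispersions, the length offset, a replicate block, receptor constant genes summed and each library left out. 1 gene of the proximal signalling list is counted with it but not reported here by itself. The sum of Tcrg-C1 with its near copies alone was added after seeing the data.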

Additional observations from a re-analysis of the deposited data

How the results depend on the processing

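The calls of Ubash3a in epidermal against subcutaneous and Sca1+ ILCs and in CCR6+ against subcutaneous ILCs, of Tcrg-C1 in epidermal and CCR6+ against subcutaneous ILCs, and of Trdv4 in epidermal against subcutaneous ILCs passed in all 12 other settings and with each of the 10 libraries left out. Where constant genes were summed, the value taken for Tcrg-C1 was its sum with other gamma constant genes. No fold change of a member that passed here or in any of these settings changed sign. The number of members called was 5 in epidermal against subcutaneous ILCs and 1 in epidermal against CCR6+ ILCs with no filter beyond 1 count, where the main counts were 3 and 0. Between the dermal populations it was 2 with DESeq2 and with either limma setting, 3 with no filter and 0 with only those groups in the fit, and in epidermal against Sca1+ ILCs 2 with either limma setting and with no filter. With a library left out, the members called in Sca1+ against subcutaneous ILCs were 0 to 1.

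Over all genes, the number called rose with DESeq2 to 2001 in epidermal against CCR6+, 561 between the dermal populations, 1193 in Sca1+ against subcutaneous, 2967 in epidermal against Sca1+ and 2345 in CCR6+ against subcutaneous ILCs, and with no filter to 2028, 647, 1328, 2918 and 2292. Limma-trend with a pseudocount of 1 or 0.1 called 891 or 743 in Sca1+ and 1978 or 1899 in CCR6+ against subcutaneous ILCs. With only the groups compared, 618, 47 and 560 genes were called in the first 3 of these 5. With a library left out, the genes called were 35 to 155 between the dermal populations, 157 to 420 in Sca1+ against subcutaneous, 1192 to 1865 in epidermal against Sca1+ and 435 to 1372 in CCR6+ against subcutaneous ILCs, where a lone remaining library was taken to vary like the others. Among genes called in epidermal against subcutaneous ILCs, the share higher in the epidermal group was 34.1% in edgeR and 47.9% on log2(TPM + 1). The cause of these shifts was not tested.

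Correlations of deviations from the group means were small, from -0.038 to 0.114 in same-numbered libraries of different groups and from -0.101 to 0.088 in other pairs. The numbers were therefore not taken to pair libraries. In groups of 2 libraries the deviations mirror each other, so the check cannot exclude a pairing. A replicate block by title number moved the genes called between the dermal populations from 104 to 64 and in Sca1+ against subcutaneous ILCs from 357 to 203, and the Cd3g difference of CCR6+ from subcutaneous ILCs no longer passed (1.57, adjusted p = 0.0536). The SEs of Cd3d and Cd3e, 0.88 to 1.64 on the log2 scale, limit what these libraries can show of them.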

Other observations

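Receptor rearrangement genes were nearly silent except in 1 library. Rag1, which encodes a part of the recombinase, had 30 counts (2.09 CPM) in the second subcutaneous library, 2 counts in the third and 0 in the other 8. Dntt, the enzyme that adds bases at junctions, had 191 counts (13.3 CPM) in the second subcutaneous library, 1 count in a CCR6+ library and 0 in the other 8. Rag2, the partner of Rag1, had 0 counts in all 10 libraries, and Ptcra, the surrogate alpha chain of developing T cells, had 1 count in all. That second subcutaneous library was also the one with the highest Trdc, Cd4, Cd8b1 and NK cell marker levels. It had the highest sum of macrophage and dendritic cell markers as well (6765 CPM), and the most genes with at least 1 count (19376). Which cells its Rag1 and Dntt counts came from was not tested.

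Of the other genes on the list of rearrangement and early T lineage, 8 were tested. In epidermal against subcutaneous ILCs 3 rose and 1 fell, where 20.2% of all genes passed. In CCR6+ against subcutaneous ILCs 2 rose, where 7.46% of all genes passed. Not all of these are named. Tcf7, a transcription factor of early T cells and ILCs, stood at 416, 245 and 345 CPM in epidermal, 283 and 336 CPM in CCR6+, 98.5 and 122 CPM in Sca1+, and 72.5, 125 and 51.8 CPM in subcutaneous libraries. All epidermal and CCR6+ libraries lay above the others, as for Ubash3a and Lck. Tcf7 rose by 2.01 ± 0.32 (SE, log2 scale) in epidermal against subcutaneous ILCs (edgeR adjusted p = 0.00161) and by 1.89 ± 0.35 in CCR6+ ILCs (adjusted p = 0.0089). Bcl11b, a T and ILC2 lineage factor, rose by 1.24 ± 0.29 in epidermal ILCs (adjusted p = 0.0128), and Gata3, a factor of ILC2 and helper T cells, fell by 1.63 ± 0.19 (adjusted p = 0.000184).

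Of 5 signalling adaptors of other immune receptors, Fcer1g, Tyrobp and the B cell receptor chain Cd79a fell in epidermal and in CCR6+ against subcutaneous ILCs, where 20.2% and 7.46% of all genes were called, and Cd79a alone in Sca1+ ILCs, against 2.2%. Fcer1g, which can pair with the zeta chain, stood at 16.4, 29.5 and 21.2 CPM in epidermal, 35.7 and 30 CPM in CCR6+, 63.6 and 56.6 CPM in Sca1+, and 99, 397 and 140 CPM in subcutaneous libraries. It fell by 3.25 ± 0.49 (SE, log2 scale) in epidermal against subcutaneous ILCs (edgeR adjusted p = 0.00102), and Tyrobp, the adaptor DAP12, fell by 8.44 ± 0.86 (adjusted p = 8.87e-05). Hcst, the adaptor DAP10, and Cd79b, the partner of Cd79a, did not pass, with differences of -0.10 ± 0.26 and -0.23 ± 0.61. The macrophage and dendritic cell markers, of cells that express Fcer1g and Tyrobp, ran between 3676 and 6765 CPM in the subcutaneous libraries and reached at most 3.77 CPM in the epidermal ones. Their part was not tested.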
